A study of Mus musculus with 6 samples.

Results

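Short rearrangements of the T-cell receptor beta chain (TCRB) were described in T follicular regulatory (Tfr) cells, CD4 T cells that express Foxp3 and act in B-cell follicles. A rearrangement was called short when its CDR3, the loop read from the conserved cysteine to the conserved phenylalanine, had 12 residues or fewer. Members were selected on this length alone, and 727 of the 4409 listed rearrangements met it (16.5%), with 1230 of 7043 templates (17.5%). A rearrangement here is 1 listed sequence of 87 bases in 1 sample, and a template is 1 unit of its deposited count. The cells were sorted from the spleens of 3 mice of the genotype Foxp3GFP, in which GFP reports Foxp3. From each animal come a superior and an inferior sample. What these words stand for is not defined in the labels, which also give no treatment, age or sort gate and name no group without the reporter. TCRB was amplified from genomic DNA, which holds no marker transcripts, so the Tfr label was not checked against genes.

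The beta chain CDR3 is made when a V, a D and a J segment are joined. Nucleases trim the segment ends, and terminal deoxynucleotidyl transferase adds bases that no segment encodes. A short CDR3 therefore comes from more trimming, fewer added bases or shorter segments, and the loop it forms contacts the peptide held by the MHC molecule. In the mouse locus TRBD1 precedes the TRBJ1 cluster and TRBD2 lies between the TRBJ1 and TRBJ2 clusters, so a join by deletion can use TRBD2 with TRBJ2 segments only.

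The following CDR3 sequences show how short rearrangements were built. They run from the cysteine codon to the codon before the last residue, where the deposited 87 bases end. Lower case marks bases matched to the V or J segment as the files' own rearrangements give it, and capitals mark the middle bases matched to neither. The first is the shortest of all, the second was listed with the same CDR3 bases in mice 1 and 3, the next 3 encode 1 CDR3 found in all 3 mice, and the last had the most templates.
TRBV13-2 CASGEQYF TRBJ2-7: tgtgccagcggtgaacagtac
TRBV2 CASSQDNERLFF TRBJ1-4: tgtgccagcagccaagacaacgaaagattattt
TRBV13-2 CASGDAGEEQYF TRBJ2-7 of mouse 1: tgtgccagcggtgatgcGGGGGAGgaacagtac
TRBV13-2 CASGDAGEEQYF TRBJ2-7 of mouse 2: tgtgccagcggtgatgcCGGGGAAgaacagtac
TRBV13-2 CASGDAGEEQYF TRBJ2-7 of mouse 3: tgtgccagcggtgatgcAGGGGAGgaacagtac
TRBV13-3 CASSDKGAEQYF TRBJ2-7: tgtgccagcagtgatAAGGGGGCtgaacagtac
The first 2 held no middle base, so every base shown matched V or J. The 3 forms of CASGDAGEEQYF shared their V and J bases and differed within 7 middle bases, all of which are rich in G like the TRBD segments. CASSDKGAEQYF kept 15 V bases and 10 J bases around 8 middle bases.

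Short rearrangements were a minor class of each library. Among rearrangements whose CDR3 starts with cysteine, their share was 15.02%, 18.6% and 15.5% in the superior samples of mice 1, 2 and 3, and 16.2%, 16.3% and 17.3% in the inferior samples. The 6 shares overlapped between groups, and their 95% Wilson intervals, which cover counting error only, spanned 12.01 to 21.7%. The superior mean of 16.4% ± 1.95 and the inferior mean of 16.6% ± 0.623 (SD, n = 3 each) differed by -0.22 percentage points (two-sided exact permutation p = 0.9, smallest possible 0.1). The superior sample was higher in 1 of 3 mice. Lengths ran from 8 to 12 residues, with 1, 7, 33, 214 and 472 rearrangements at 8, 9, 10, 11 and 12 residues, so 12-residue loops made up most of the class. The comparison class of 13 to 15 residues held 3219 rearrangements. Library depth was 667 to 1855 templates, lowest in the superior sample of mouse 1, which had 67 short rearrangements against 90 to 191 in the other samples.

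**Figure D1:**
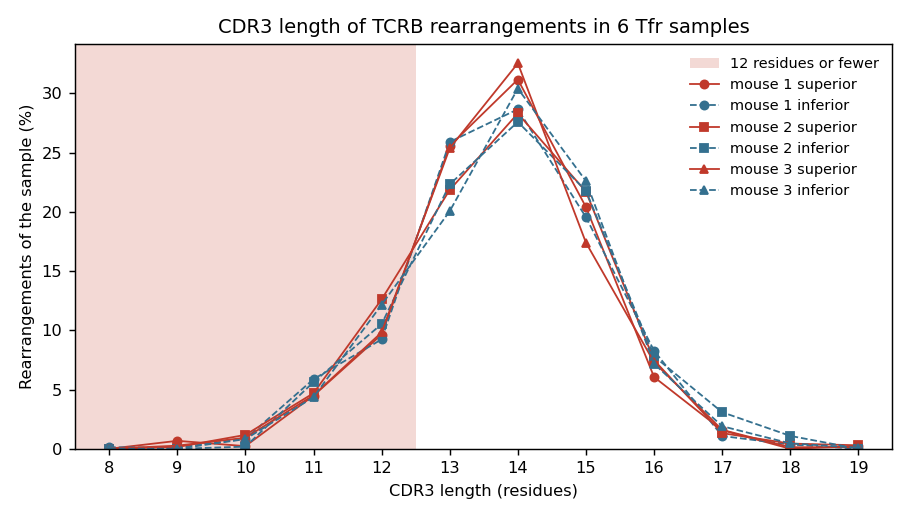
Percent of each sample's rearrangements (vertical axis) at each CDR3 length in residues (horizontal axis), for superior (solid red) and inferior (dashed blue) samples of mice 1 (circles), 2 (squares) and 3 (triangles). The shaded range is the short class, which holds 15.02 to 18.6% of the rearrangements of a sample, and the 6 curves cross within it.

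Just inside the threshold, at 12 residues, 32.0% ± 4.77 of rearrangements had no named D segment and 36.2% ± 8.85 used TRBJ2-7. Just outside it, at 13 residues, these shares were 25.3% ± 0.982 and 26.9% ± 3.29 (SD, n = 3 mice). Templates per rearrangement were 1.67 ± 0.142 at 12 and 1.70 ± 0.0564 at 13 residues. The limit of 12 residues cuts a continuous range of lengths.

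Short loops held fewer V-matched, middle and J-matched bases. V-matched bases averaged 13.1 ± 0.156 per short CDR3 and 13.8 ± 0.0761 in the comparison class, J-matched bases 12.9 ± 0.164 and 15.3 ± 0.0373, and middle bases 5.76 ± 0.383 and 9.78 ± 0.0701 (SD, n = 3 mice). The total of these bases is fixed by the selection on length, so how the shortfall was divided is a description with no test. Of the missing bases, most were middle bases, the next share J bases and the smallest V bases. No middle base at all was found in 39 of 727 short rearrangements (5.36%) and in 4 of 3219 of the comparison class (0.124%). Over mice the shares were 5.25% ± 1.02 and 0.108% ± 0.109 (SD, n = 3). By sample the short share without a middle base ran from 0 of 67 in the superior sample of mouse 1 to 10 of 117 in the superior sample of mouse 3. G made up 50.9% ± 1.05 of the middle bases of short rearrangements and 53.8% ± 1.20 of those of the comparison class.

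The share of rearrangements without a named D segment separated the classes in these samples. This share is not independent of the selection on length, which limits the middle bases, where D bases lie. The share with an unresolved D was 28.4%, 34.6% and 41.0% in the superior samples of mice 1, 2 and 3 and 51.9%, 41.1% and 36.1% in the inferior samples. In rearrangements of 13 to 15 residues it was 16.6%, 17.3% and 19.2% in the superior and 17.5%, 14.9% and 16.4% in the inferior samples. Every short value lay above every value of the comparison class. Over the 3 mice, with both samples of a mouse pooled, the means were 39.8% ± 3.71 and 17.0% ± 0.661 (SD, n = 3). The mean difference of 22.8 percentage points had the same sign in 3 of 3 mice, and its two-sided exact sign-flip p of 0.25 is the smallest that 3 mice allow. The share was lower at each added residue, from 65.7% ± 14.2 at 10 residues or fewer to 7.65% ± 0.879 at 15 residues.

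Unresolved D also moved with the number of middle bases inside each class. With 0 to 3 middle bases D was unresolved in 74.2% of 198 short rearrangements and 69.1% of 81 of the comparison class. With 4 to 6 the shares were 39.8% of 249 and 42.2% of 502, and with 7 to 9 they were 17.6% of 182 and 18.0% of 992. At 10 or more they were 9.18% of 98 and 6.27% of 1644. At a like number of middle bases the 95% Wilson intervals of the classes overlapped in all 4 ranges. These intervals pool all samples and cover counting error only, so their overlap does not show that the shares are equal.

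**Figure D2:**
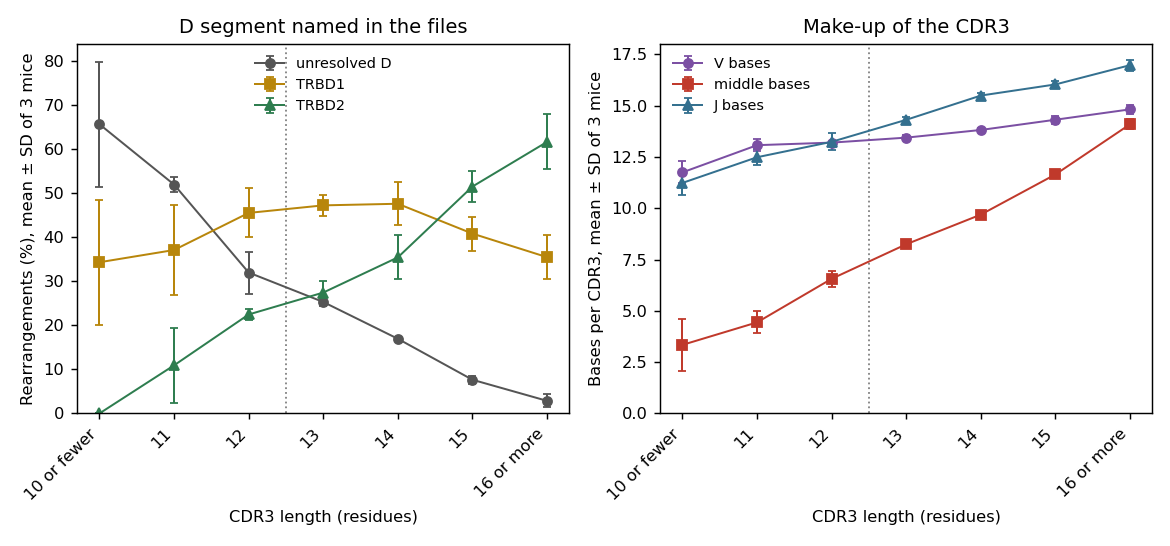
Left, percent of rearrangements with an unresolved D, TRBD1 or TRBD2, and right, V-matched, middle and J-matched bases per CDR3, against CDR3 length in residues. Points are means and bars SDs of 3 mice, and the dotted line divides short from longer loops. Unresolved D falls from 65.7% to 2.86% while middle bases rise from 3.34 to 14.1, and TRBD2 is at 0 in loops of 10 residues or fewer.

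Among the D segments that were named, TRBD1 prevailed in short loops. TRBD1 (chr6:41533201-41533212, GRCm38.p6) spans 12 bases and TRBD2 (chr6:41542163-41542176) spans 14. TRBD1 was called in 39.6%, 41.5% and 46.4% of short rearrangements of mice 1, 2 and 3 and in 43.5%, 45.2% and 48.0% of the comparison class, so its share of all rearrangements was lower in the short class in each mouse. TRBD2 was called in 16.3%, 21.2% and 15.6% of short rearrangements and in 39.4%, 38.5% and 34.5% of the comparison class, with no overlap between the classes. As a share of named D segments TRBD1 was 70.6% ± 4.35 in short and 54.9% ± 2.97 in the comparison class (SD, n = 3). This difference of 15.7 percentage points was positive in 3 of 3 mice (two-sided exact sign-flip p = 0.25, the smallest possible). The calls of TRBD1 and TRBD2 are likewise not independent of the selection on length.

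The D segments were also counted within each J cluster. Within TRBJ2, TRBD1 was 62.2% ± 3.46 of named D segments in short and 38.7% ± 2.53 in longer loops. Within TRBJ1 it was 90.4% ± 3.37 and 91.8% ± 2.94 (SD, n = 3 mice). The remainder of these TRBJ1 joins carried the name TRBD2, which a join by deletion does not give. Whether the differences within TRBJ1 and within TRBJ2 differ from each other was not tested. The share of rearrangements that used a TRBJ1 segment was 34.1% ± 4.95 in short and 31.9% ± 0.926 in longer loops. Unresolved D was higher in short loops within both clusters, at 46.6% ± 11.5 against 20.6% ± 1.48 within TRBJ1 and 36.7% ± 1.36 against 15.3% ± 1.60 within TRBJ2.

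TRBJ2-7 was higher and TRBJ2-2 lower among short rearrangements. J segments encode the end of the CDR3, and their lengths, which enter the CDR3 length by which members were selected, run from 47 bases for TRBJ2-7 to 53 for TRBJ1-6 among those tested. Rearrangement counts per segment, mouse and class were tested with edgeR's quasi-likelihood test with the mouse as a block, and calls were made at a Benjamini-Hochberg adjusted p under 0.05. Of 12 J segments tested, 2 were called (16.7%), 1 in each direction. Since each share is part of a whole, a rise of one segment lowers the others.

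TRBJ2-7 (chr6:41543810-41543856, GRCm38.p6) made up 38.8%, 44.4% and 26.5% of short rearrangements in the superior samples of mice 1, 2 and 3 and 31.1%, 37.8% and 27.4% in the inferior samples. In rearrangements of 13 to 15 residues it made up 22.1%, 25.3% and 21.0% in the superior and 20.4%, 25.3% and 19.0% in the inferior samples. All 6 short values lay above all 6 values of the comparison class. The log2 difference was 0.61 (SE 0.13, edgeR adjusted p = 0.00133), with mouse means of 34.1% ± 7.33 and 22.1% ± 2.88 (SD, n = 3). The call was lost when mouse 1 (log2 0.58, edgeR adjusted p = 0.283) or mouse 2 (log2 0.55, edgeR adjusted p = 0.0688) was left out. It was kept in the other 10 of 12 alternative fits. Over all 12, with edgeR or DESeq2, the log2 difference ran from 0.46 to 0.87 and the adjusted p from 5.91e-07 to 0.283.

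TRBJ2-2 (chr6:41542957-41543007), a segment of 51 bases, was found in 1, 5 and 8 short rearrangements of mice 1, 2 and 3, or 0.495%, 2.31% and 2.61%. In the comparison class it made up 6.24%, 5.88% and 7.95%, and the classes did not overlap over mice. The same held for every other J segment tested except TRBJ1-2, TRBJ1-4 and TRBJ2-4, so this is not particular to TRBJ2-2. The log2 difference of TRBJ2-2 was -1.82 (SE 0.45, edgeR adjusted p = 0.00315). It was -1.501 without mouse 1 (edgeR adjusted p = 0.283), -2.06 without mouse 3 (edgeR adjusted p = 0.143) and -1.37 when rearrangements were weighted by templates (edgeR adjusted p = 0.156). The other 9 of 12 alternative fits kept the call, and over all 12 the adjusted p ran from 7.38e-05 to 0.283.

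The other 10 J segments were not called. TRBJ1-1, of 48 bases, stood at 11.7% ± 2.02 in short and 7.95% ± 0.91 in longer loops, a log2 difference of 0.57 (SE 0.24, edgeR adjusted p = 0.111). It was called in 6 of 12 alternative fits, DESeq2 among them (DESeq2 adjusted p = 0.0201), with adjusted p from 0.00674 to 0.490 over all 12. TRBJ1-6, TRBJ2-1 and TRBJ2-5 were each called in 2 of 12. TRBJ2-1 had a log2 difference of -0.61 and TRBJ2-5 one of -0.45, and TRBJ1-3 and TRBJ1-6 had -0.69 and -1.24. TRBJ1-2, TRBJ1-4, TRBJ1-5 and TRBJ2-4 lay between 0.02 and 0.38, and TRBJ2-3 was at -0.58. Across the 12 segments the log2 difference and the segment length correlated at r = -0.71 (Spearman rho = -0.72). The points share their libraries and sum to 1 whole, so this is a description only.

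No V segment was called between the classes. V-matched bases enter the CDR3 length by which members were selected, so V use is not independent of that selection in any of the fits. edgeR called 0 of 22 (0%), 3 of them at an unadjusted p under 0.05, and DESeq2 called 0. The 3 were TRBV5, TRBV20 and TRBV14. TRBV20 (chr6:41188273-41188977), whose CDR3s open with cysteine, glycine and alanine, made up 10.4%, 10.1% and 7.79% of short rearrangements in mice 1, 2 and 3 and 4.99%, 3.50% and 4.96% of the comparison class. Its log2 difference was 1.04 (SE 0.23, edgeR adjusted p = 0.0889). The classes did not overlap over mice. TRBV5 (chr6:41062359-41062803) made up 1.98%, 3.23% and 3.90% of short and 7.69%, 7.23% and 8.89% of longer rearrangements. Its log2 difference was -1.35 (SE 0.23, edgeR adjusted p = 0.0681), and again no values overlapped. Among the 22 tested, the classes also did not overlap over mice for TRBV2, TRBV12-2, TRBV14 and TRBV30, so this is not particular to TRBV20 and TRBV5.

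TRBV5 was called in 7 and TRBV20 in 5 of the 13 alternative fits, with adjusted p from 0.000485 to 0.227 and from 0.00113 to 0.594 by edgeR or DESeq2. With rearrangements of the same V, CDR3 bases and J merged within a mouse, the edgeR adjusted p was 0.00181 for TRBV5 and 0.00548 for TRBV20, and TRBV2 was called too (log2 -0.95, edgeR adjusted p = 0.0328; 0.0149 to 0.657 over its 13 alternatives). In the main fit TRBV2 had a log2 difference of -0.99 (SE 0.50, edgeR adjusted p = 0.444) and a wide spread, with 2.97%, 0.922% and 6.17% of short rearrangements in the 3 mice. TRBV14 was listed in 1, 1 and 0 short rearrangements against 16, 11 and 13 longer ones (log2 -2.09, SE 0.55, edgeR adjusted p = 0.115). TRBV31 had a log2 difference of 0.64 and TRBV30, with 5 short rearrangements in all, one of 0.97. TRBV13-2, the V segment with the most short rearrangements (103), stood at 14.4% ± 4.28 in short and 13.3% ± 0.45 in longer loops. In the superior sample of mouse 1 it was found in 1 of 67 short rearrangements (1.49%), against 9.42 to 22.2% in the other 5 samples.

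**Figure D3:**
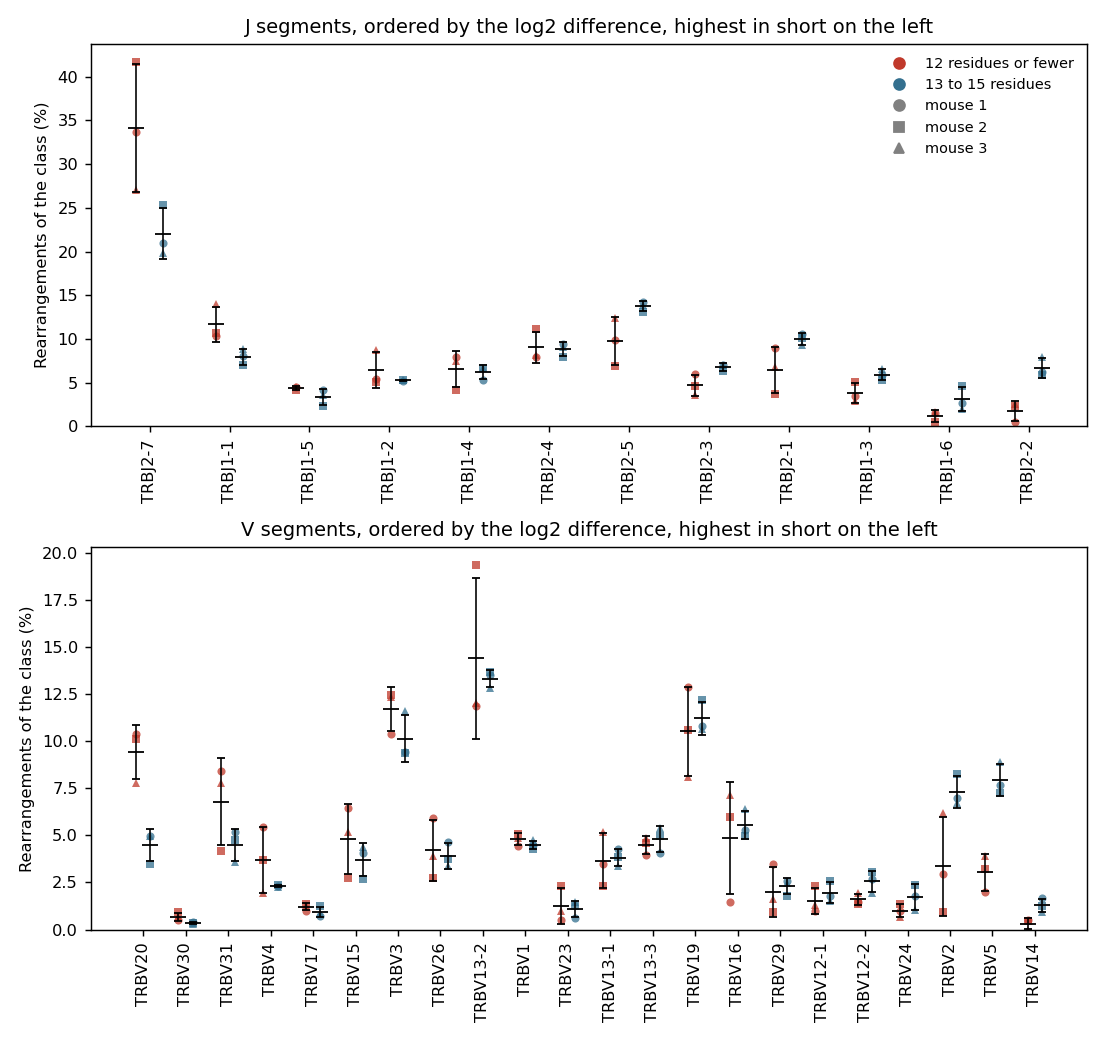
Percent of rearrangements of each class that use a J (top) or V (bottom) segment, for short (red) and 13 to 15 residue (blue) loops. Symbols are mice 1 to 3, bars are mean and SD (n = 3), and segments are ordered by the log2 difference of the fit. TRBJ2-7 at the left and TRBJ2-2 at the right of the top panel are the segments called.

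The V segments also differed in how many bases they left in the CDR3. In the comparison class TRBV20 rearrangements kept 12.1 V bases on average, TRBV4 12.1 and TRBV30 11.2, while TRBV2 kept 15.3, TRBV5 15.1 and TRBV1 15.3. The first 3 had positive log2 differences and TRBV2 and TRBV5 negative ones, but TRBV1 was at 0.09 and TRBV14, with 13.3 bases, was at the lowest value of all. In short loops TRBV20 kept 11.2 V bases and 6.76 middle bases, and TRBV5 kept 14.3 and 4.96.

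V and J use met in a few frequent pairs. TRBV13-2 with TRBJ2-7 was the most frequent pair, with 57 short rearrangements, or 8.37% ± 4.38 of the class against 3.37% ± 0.680 of longer loops (SD, n = 3). TRBV19 with TRBJ2-7 had 32 and TRBV3 with TRBJ2-7 had 29 short rearrangements. The 6 most frequent pairs all used TRBJ2-7, and this ranking was made on the short class itself. CDR3s that opened with CASS made up 54.8% ± 4.76 of short and 66.2% ± 1.80 of longer loops, and the TRBV20 stem CGAR 5.89% ± 1.88 and 3.58% ± 0.756. CDR3s that closed with EQYF, as TRBJ2-7 encodes, made up 32.7% ± 6.29 of short and 21.9% ± 2.84 of longer loops.

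No residue of the CDR3 core was called. The core was the CDR3 without its first 4 and last 4 residues, which V and J segments mostly set, and residues of 1 loop are not independent. Matched V and J bases averaged 13.1 and 12.9 in short loops and 13.8 and 15.3 in longer ones, so they also reached into the core. The core held 2603 residues in all short and 19202 in all longer loops. How far V and J use and the selection on length enter the core shares was not tested. Of 19 residues edgeR called 0 (0%) and 5 had an unadjusted p under 0.05. By DESeq2 both counts were 0. The 5 were named after their values were seen. Glycine, small and flexible and encoded in every reading frame of the D segments, made up 18.9% ± 2.06 of core residues in short and 24.0% ± 0.597 in longer loops (log2 -0.34, SE 0.12, edgeR adjusted p = 0.0829). Aspartate, which is acidic, made up 11.6% ± 1.63 and 8.70% ± 0.245 (log2 0.41, SE 0.15, edgeR adjusted p = 0.0829). Tyrosine, which is aromatic, stood at 6.95% ± 1.82 and 4.90% ± 0.558, with lower values in mouse 3 (4.86%) than in mice 1 and 2 (8.20% and 7.78%). Histidine and lysine, the rarest of the 5, had log2 differences of 0.63 and 0.85. A hydrophobic residue (I, L, V, F, M or W) at CDR3 position 6 or 7, counted from the cysteine, was present in 14.02% ± 1.75 of short and 27.5% ± 2.40 of longer loops (SD, n = 3 mice). These positions lie nearer the J-encoded end in a short loop, and the share was computed without a test.

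Short rearrangements were mostly single templates, and clone size was compared with longer loops by 2 measures. Of 727 short rearrangements, 442 had 1 template, 178 had 2 and 60 had 3, and 1 had more than 9. Some listed sequences shared V, CDR3 bases and J with another of the same sample and are counted apart here. They made up 21.7% ± 3.79 of short and 19.0% ± 2.01 of longer rearrangements (SD, n = 3 mice). Templates per short rearrangement were 1.52, 1.81 and 1.62 in the superior and 1.61, 1.56 and 1.83 in the inferior samples. In the comparison class they were 1.48, 1.59 and 1.496 in the superior and 1.69, 1.73 and 1.68 in the inferior samples. The ranges overlapped. The mouse means were 1.68 ± 0.0871 and 1.62 ± 0.0260, a difference of 0.0576 ± 0.0922 (SD, n = 3) that was within the spread between mice and positive in 2 of 3 (two-sided exact sign-flip p = 0.5). Rearrangements of 2 or more templates made up 39.0% ± 2.05 of short and 35.4% ± 2.40 of longer loops, a difference of 3.57 ± 0.833 percentage points (SD, n = 3). This difference was larger than its spread between mice and positive in 3 of 3 (two-sided exact sign-flip p = 0.25, the smallest possible). By sample it was 8.83, 9.08 and 7.22 points in the superior samples of mice 1, 2 and 3 and 1.02, -1.97 and -0.65 in the inferior ones, and whether the groups differ in it was not tested. Without TRBJ2-7 this difference was -0.32 percentage points, and within TRBJ2-7 alone it was -2.31.

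Templates per rearrangement spanned a wider range over J segments than between the length classes. TRBJ2-7 rearrangements had 2.22 templates each in short and 2.36 in longer loops, while all other J segments together had 1.41 ± 0.0683 and 1.41 ± 0.0288 (SD, n = 3 mice). TRBJ1-1 had 1.02 and 1.06, with 85 of its 87 short rearrangements at 1 template. TRBJ2-4, TRBJ2-5 and TRBJ2-3 had 1.08, 1.096 and 1.18 in short loops, and TRBJ1-3, TRBJ1-4 and TRBJ1-5 had 2.00, 2.19 and 2.09. In longer loops the first 3 stood at 1.13, 1.16 and 1.27 and the last 3 at 2.08, 1.80 and 2.07. TRBJ2-2 was apart, with 2.07 in short loops, from 29 templates of only 14 rearrangements, and 1.40 in longer ones. TRBV2 had the highest pooled values among V segments, with 2.78 templates per short and 2.69 per longer rearrangement. Its short value was uneven over mice, at 2.5, 1 and 3.05 in mice 1, 2 and 3, and in mouse 2 TRBV13-3 stood at 3.80. These segment means were not tested, and whether they come from cells or from amplification was not tested either.

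**Figure D4:**
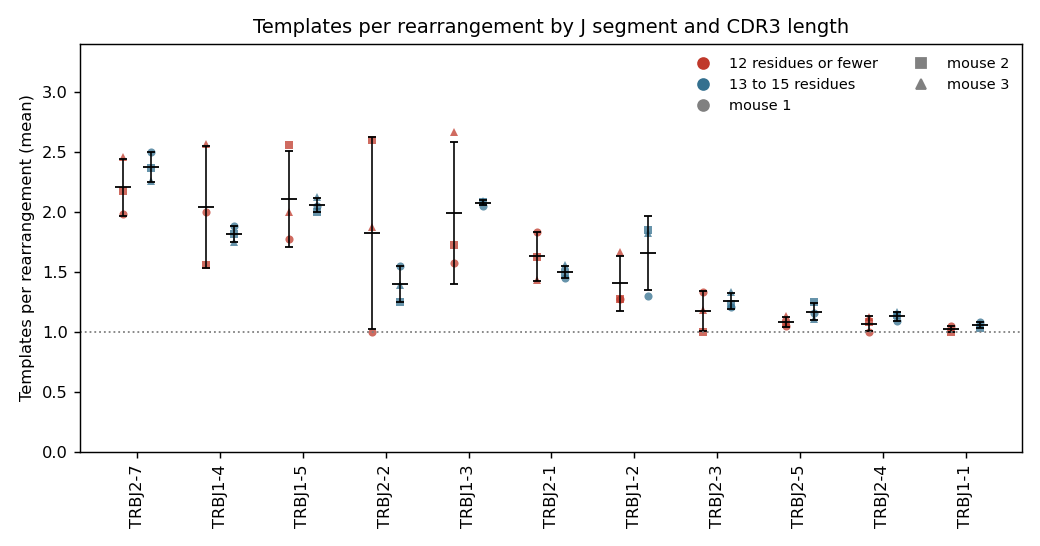
Mean templates per rearrangement (vertical axis, dotted line at 1) for each J segment with 10 or more short rearrangements, in short (red) and 13 to 15 residue (blue) loops. Symbols are mice 1 to 3 and bars are mean and SD (n = 3). TRBJ2-7 lies at 1.99 or more in each mouse and class, and TRBJ1-1 at 1.08 or less.

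The largest short rearrangements were small clones. TRBV13-3 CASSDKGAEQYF TRBJ2-7, printed above, had 13 templates in the superior sample of mouse 2, or 1.19% of that sample (95% Wilson interval 0.695 to 2.02), and 3 in the inferior sample. TRBV13-3 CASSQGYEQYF TRBJ2-7, of 11 residues, had 9 templates in the same superior sample and none in the inferior one. TRBV1 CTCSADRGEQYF TRBJ2-7 led mouse 1 with 8 templates in the inferior sample. TRBV31 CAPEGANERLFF TRBJ1-4 kept 6 V bases and had, in mouse 3, 6 superior and 8 inferior templates. Among clonotypes with at least 3 templates per mouse, short ones were 27 of 158, 29 of 153 and 55 of 262 in mice 1, 2 and 3. These shares of 17.1%, 19.0% and 21.0% stand beside 15.5%, 17.6% and 16.8% over all clonotypes of the same mice, loops of 16 residues or more included. Counted per sample, rearrangements of 3 or more templates made up 11.4%, 13.8% and 17.5% of short loops in mice 1, 2 and 3. In the comparison class they made up 13.4%, 12.8% and 12.6%, so the short share was the lower one in mouse 1.

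The shortest loops were 1 of 8 residues and 7 of 9 residues, and of the 7 the 2 with the most templates are described. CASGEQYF, of 8 residues and without a middle base, had 2 templates in the inferior sample of mouse 1. TRBV20 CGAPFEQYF TRBJ2-7, of 9 residues, had 4 templates in the superior sample of mouse 2 with 6 middle bases. TRBV13-1 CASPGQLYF TRBJ2-2, also of 9 residues, had 3 templates in the superior sample of mouse 3 with 1 middle base. D was unresolved in these 3.

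The share of rearrangements listed again in the other sample of the same mouse did not differ between short and longer loops beyond the spread between mice. Identical 87-base rearrangements in both samples numbered 9, 10 and 8 in mice 1, 2 and 3. As a share of listed short rearrangements this was 13.4%, 7.87% and 6.84% in the superior and 6.67%, 11.1% and 4.19% in the inferior samples. In the comparison class the shares were 8.14%, 9.18% and 9.52% and 4.53%, 11.4% and 6.71%. Over mice the means were 7.77% ± 2.24 and 7.95% ± 2.18, a difference of -0.18 ± 2.96 (SD, n = 3; two-sided exact sign-flip p = 1). The difference was positive in mouse 1 and negative in mice 2 and 3. Short rearrangements of 2 or more templates were found in the other sample in 10.4% ± 3.44 of cases and those of 1 template in 6.10% ± 1.52. In the comparison class these values were 11.3% ± 2.79 and 6.14% ± 1.91, so the pattern is not particular to short loops. TRBV16 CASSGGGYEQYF TRBJ2-7, with 3 superior and 7 inferior templates in mouse 2, and TRBV20 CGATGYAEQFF TRBJ2-1, with 2 and 4 in mouse 1, were among those shared.

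Across mice, 19 of 727 short rearrangements (2.61%) matched another mouse by V, CDR3 amino acids and J, as did 65 of 3219 longer ones (2.02%). Mouse means were 2.73% ± 0.759 and 2.06% ± 0.279, and the difference of 0.665 percentage points was positive in 3 of 3 mice (two-sided exact sign-flip p = 0.25, the smallest possible). It was -0.94 when short meant 11 residues or fewer. By clonotype, 6 of 606 short and 23 of 2725 longer ones were found in 2 or more mice, or 0.990% and 0.844%. Identical 87-base rearrangements across mice were rare, at 4 of 727 short (0.550%) and 12 of 3219 longer ones (0.373%). They came from 2 of 698 distinct short and 6 of 3086 distinct longer sequences. Each such sequence is counted in every sample that listed it, so these rearrangements are not independent, and the shares were not tested.

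The 6 short clonotypes found in more than 1 mouse were few and mostly built from different bases. TRBV13-2 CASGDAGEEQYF TRBJ2-7 was found in all 3 mice, with 1 nucleotide form per mouse and 2, 3 and 2 templates. TRBV3 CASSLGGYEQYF TRBJ2-7 had 9 templates in mice 1 and 2 in 3 forms, 1 of them in both mice. TRBV2 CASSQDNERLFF TRBJ1-4 had 3 templates in mouse 1 and 6 in mouse 3 in 1 form with no middle base. TRBV13-2 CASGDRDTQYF TRBJ2-5, TRBV20 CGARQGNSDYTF TRBJ1-2 and TRBV4 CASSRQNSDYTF TRBJ1-2 each had 2 forms, with 4, 3 and 3 templates. Of the 6, 5 had more than 1 form, and of the 23 longer ones 18 did. Within a mouse, 0.961% ± 0.348 of short and 0.937% ± 0.0928 of longer clonotypes had 2 or more CDR3 nucleotide forms (SD, n = 3).

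Superior and inferior samples were then compared within the short class, over 3 samples each. edgeR called 0 of 17 V segments (0%) and 0 of 11 J segments (0%), each with 1 at an unadjusted p under 0.05. DESeq2 called 0 in both, with 0 at that unadjusted threshold. The V segments with the largest log2 differences were TRBV13-1 (0.84) and TRBV12-1 (0.61) toward superior and TRBV2 (-1.61, SE 0.76, edgeR adjusted p = 0.840) and TRBV12-2 (-1.07) toward inferior. TRBV2 was found in 0%, 0.787% and 3.42% of short rearrangements of the superior and 4.44%, 1.11% and 7.85% of the inferior samples, lower on the superior side in each mouse. TRBJ1-5 made up 1.49%, 2.38% and 3.42% in the superior and 5.93%, 6.67% and 5.26% in the inferior samples (log2 -1.14, SE 0.54, edgeR adjusted p = 0.436), and these values did not overlap. The values of TRBJ1-3 did not overlap between the groups either. TRBJ1-3 (0.72) and TRBJ2-2 (0.40) had the largest positive J differences, and TRBJ1-4 (-0.71) followed TRBJ1-5. TRBJ1-6, noticed after its values were seen and under the minimum of 10 counts of the fit, was listed in 0 of 311 superior and 9 of 416 inferior short rearrangements. The 0 allows a share of up to 0.965%, for counting error only. The superior samples had 1.65 ± 0.146 and the inferior ones 1.67 ± 0.146 templates per short rearrangement (SD, n = 3 each; two-sided exact permutation p = 0.8, smallest possible 0.1).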

How the data were processed

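TCRB of 6 samples was amplified from genomic DNA with the immunoSEQ mouse kit (survey resolution), per the labels' protocols, and the submitters' processing notes name build mm10. Which aligner, caller and filters were used is not stated there. The authors deposited a whole-number count per distinct rearrangement, called templates here although templates or reads is not stated, and a fraction equal to count over sample sum. All samples carry 1 run label. CDR3s not starting with cysteine (41, of which 16 had 12 residues or fewer) and, for J use, 2 short and 2 longer rearrangements without a J name were left out. V and J ends were taken from the bases shared by at least 0.5 of 10 or more rearrangements of a segment, with J ends limited by RefSeq segment lengths (GRCm38.p6). Each rearrangement counted once.

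Segments and core residues with 10 or more counts were tested with edgeR 4.0.16 (R 4.3.3; quasi-likelihood, total counts as library size, common dispersion, Benjamini-Hochberg adjustment at 0.05), with DESeq2 1.42.0 as an alternative. The edgeR step was also run on simulated counts without variation between mice, which cannot show how it behaves under such variation. Wilson intervals used scipy 1.17.1, and the exact tests went through all sign flips or assignments with numpy 2.4.6. Length classes were compared over 3 mice, the block, since both classes come from 1 animal. Superior and inferior samples of a mouse share the animal, per the titles, and were compared without the block, with it as an alternative. Their deviations from the group means over short J segments correlated at -0.03, 0.66 and 0.67 in mice 1, 2 and 3 and over V segments at 0.16, 0.35 and -0.19. No p-value reaches beyond these 3 mice. Sign-flip tests over mice use the spread of the class difference between mice. The edgeR fits use 1 dispersion common to all features. Each SE beside an edgeR log2 difference was computed back from that difference and its unadjusted p, so it is no separate measure of spread. Tests of superior against inferior samples use the spread between the samples of a group. Where single values were compared between the length classes over 6 samples, only differences are given, since the 2 samples of a mouse share the animal.

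V segments named are those called and at least the 3 largest differences per direction, J and D all. Core residues were to be named where called, and none was, so those given, and any other V segments, were chosen after their values were seen. Clonotypes named are drawn from the 2 largest of a sample, those in 2 or more mice or in both samples of a mouse, and the 3 shortest (ties by templates, then sequence). The members, lists and tests were chosen with earlier results of these data known.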

Additional observations from a re-analysis of the deposited data

How the results depend on the processing

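Against the main counts of 0 V, 2 J and 0 core calls by edgeR, other settings gave the following. With templates as weight 1 V (TRBV5) and 1 J (TRBJ2-7) were called, with merged rearrangements 3 V, 4 J and 2 residues, with the 6 samples as libraries 3 V, 6 J and 3 residues, and with no replicate block 2 V, 4 J and 2 residues. With 11 residues or fewer as short 1 V, 3 J (TRBJ1-6 added) and 5 residues were called, without TRBJ2-7 2 V and 6 residues, against all of 13 or more residues 3 J and 3 residues, and with 3 residues trimmed at each end 2 residues. DESeq2 and TMM factors gave 3 J each, and there, as against 13 or more residues, the added one was TRBJ1-1. Leaving out 1 mouse gave 0 to 2 V, 0 to 1 J and 0 to 2 residues, and without mouse 1 no J was called. Without the filter on low counts, TRBJ1-6 was the 1 J called between superior and inferior short rearrangements. Over 6 samples in place of 3 mice, unresolved D differed by 21.9 and the TRBD1 share by 16.4 percentage points. These samples share animals in pairs and both shares depend on the selection on length, so no p-value is given.

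These uncalled differences changed sign. Within TRBJ2-7 alone templates per rearrangement differed by -0.17, the share of 2 or more templates by -2.31 and the match to another mouse by -0.053, and without TRBJ2-7 the share of 2 or more templates by -0.32. The match to another mouse was -0.94 with 11 residues or fewer as short. The share found in the other sample was 0.11 over 6 samples and 0.33 against 13 or more residues, and -1.81 to 1.07 (0.21 without mouse 2) with 1 mouse left out. Between superior and inferior, the short share differed by 1.05 points by templates and by -1.48 to 0.56 with 1 mouse left out (0.25 without mouse 1), and templates per short rearrangement by -0.15 to 0.082 (0.023 without mouse 1). With the mouse as replicate block the short share differed by -0.22 as in the main test (exact sign-flip p = 1), and the block changed no other call between superior and inferior. TRBJ1-2 was -0.16 with 11 residues or fewer, TRBJ1-4 -0.018 merged and -0.15 (without mouse 1) to 0.32 with 1 mouse left out, and TRBJ2-4 -0.10 by templates, -0.32 with 11 residues or fewer, -0.12 against 13 or more residues and -0.19 (without mouse 2) to 0.15 with 1 mouse left out.

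Tests of single values over 3 mice cannot pass 0.05. Counts of 67 to 191 short rearrangements per sample leave small shares with wide intervals.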
